A study of Bos taurus with 15 samples.

Results

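The keratinocytes of the newborn (NB) reticulum were compared with those of the NB omasum, the chambers of the cattle forestomach that have a honeycomb and a leaf-like lining. A barcode was taken as a keratinocyte when it held 500 to 4000 genes, fewer than 50000 unique molecular identifiers (UMIs), at least 1 UMI of *KRT14*, and none of *PECAM1* or of *MKI67*. *KRT14* is a keratin of the basal layer, *PECAM1* marks endothelial cells, and *MKI67* marks cycling cells. This gave 4264 cells from the reticulum and 7491 cells from the omasum, together 11755 of the 172405 barcodes in the 15 libraries of the series. In the other 13 libraries, 10 barcodes met the same limits, with 0 to 4 per library.

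Both libraries came from the forestomach of newborn Holstein calves and carry no treatment or genetic change. The 10x Genomics method was used, in which a barcode tags the RNA of 1 droplet and a UMI tags 1 molecule, so that the counts are of molecules. The muscle was stripped from both tissues, which were then dissociated by the same protocol with EDTA, trypsin, and a mixture of collagenases, hyaluronidase, dispase, and DNase. There was 1 library per tissue and no replicate, which leaves no error between animals and no test. The study collected tissue from several NB calves and does not name the calf behind each library in its text, so tissue, animal, and library cannot be told apart. Levels are given as CPM, the summed UMIs of a gene per 1000000 UMIs of all cells chosen from that tissue, with exact Poisson 95% intervals that cover counting error only. Where a pair of values is given, the reticulum comes first.

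The forestomach is lined by a stratified squamous epithelium. Its basal cells, attached to the basement membrane, divide and carry *KRT5*, *KRT14*, and *KRT15*, whereas the spinous cells above them build desmosomes and switch keratins, and the outermost cells cross-link a cornified envelope from proteins such as involucrin. In the mature animal this lining takes up short-chain fatty acids and turns part of the butyrate into ketone bodies, and the omasum absorbs water and minerals from the passing digesta. The calf is born before this fermentation has begun.

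Keratinocyte markers were high on both sides. The level of *KRT5* was 6235 CPM in the reticulum and 7259 CPM in the omasum, and that of *KRT15* was 9632 CPM and 9980 CPM, respectively. *KRT14*, which chose the cells, was at 3582 CPM and 5236 CPM, and *TP63*, the master transcription factor of stratified epithelium, at 50.2 CPM and 46.2 CPM. The median cell held 8224.5 UMIs in the reticulum and 8520 in the omasum. The share of mitochondrial UMIs had a similar median (5.50% and 5.20%), yet it reached 10% in 21.1% of the reticulum cells and in 8.20% of the omasum cells. Markers of melanocytes, red cells, and columnar gastric epithelium summed to at most 15.5 CPM per list. Fibroblast markers were seen in both tissues, with all 13 above 0 and 2 below 1 CPM in each, a summed level of 343 CPM in the reticulum and 219 CPM in the omasum, and *DCN* the most abundant (217 CPM and 114 CPM). Leukocyte markers summed to 72.3 CPM and 43.0 CPM, with *MS4A1* at 0 in both and *CD3E* at 0 in the reticulum. The most abundant of them was *CD74* (27.3 CPM and 19.9 CPM), and *AIF1* was found in 15.6% and 6.83% of the cells. Smooth muscle and pericyte markers summed to 152 CPM and 160 CPM, with *CSPG4* the most abundant (88.3 CPM and 100 CPM). Of the 10 in this list, 2 were below 1 CPM in the reticulum and 6 in the omasum. The 3 above a mean of 10 CPM had log2 ratios of reticulum over omasum of -0.17 (*CSPG4*), -1.10 (*NOTCH3*), and 0.77 (*ACTA2*). *NOTCH3* is also in the list of spinous genes used below, and the source of the *CSPG4* UMIs was not tested. Without cells that held *PTPRC*, *COL1A2*, *COL3A1*, or *CDH5*, the numbers of genes at least 2-fold higher in the reticulum and in the omasum were 78 and 75, where all cells gave 78 and 71. This leaves out barcodes and does not remove free RNA of other cells from the droplets that stay.

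The limit on *KRT14* did not fall in a gap. Of the cells, 461 in the reticulum (10.8%) and 516 in the omasum (6.89%) held exactly 1 UMI of *KRT14*, and a further 476 and 548 barcodes met the other limits with none. Cells at 1 UMI had 3453 CPM of *KRT5* in the reticulum and 2130 CPM in the omasum, and barcodes at 0 UMIs had 3241 CPM and 1713 CPM. *KRT5* was found in 92.0% and 88.2% of the cells at 1 UMI and in 90.8% and 75.4% of the barcodes at 0 UMIs. The fibroblast gene *COL1A2* parted more across the limit, at 787 CPM at 0 UMIs and 291 CPM at 1 UMI in the reticulum, and at 666 CPM and 198 CPM in the omasum. The 1 UMI cells of the omasum carried 21045 CPM of the calcium-binding protein gene *S100A12* and those of the reticulum 7391 CPM. A UMI of *KRT14* was also found in 97 of 213 reticulum barcodes (45.5%; Clopper-Pearson interval 38.7% to 52.5%) and in 70 of 108 omasum barcodes (64.8%; 55.0% to 73.8%) with 3 or more UMIs of *PECAM1*, whose median depths were 4344 and 5484.5 UMIs. The presence of *KRT14* UMIs was thus not particular to keratinocytes. How many of the cells at 1 UMI are keratinocytes was not tested. When 5 or more UMIs of *KRT14* were required, 77 of the 78 genes that were at least 2-fold higher in the reticulum in all cells and 52 of the 71 higher in the omasum were still so, and the named genes that lost this size or moved by over 1.5 times are given with that value. The libraries shared 42 barcode sequences, of which 10 passed in both (0.235% of the reticulum and 0.133% of the omasum cells). Leaving these out left the numbers of genes that differ as they were.

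Most genes had similar levels in both tissues. Of 27270 genes listed, 6466 had a mean level of at least 10 CPM over the tissues and were compared. The log2 ratio of reticulum over omasum (after adding 5 CPM to each level, which shrinks the ratio of low genes) lay within 0.5 of 0 for 87.6% of them and had a median of 0.06. At least a 2-fold difference was found for 149 genes (2.3% of those compared), with 78 higher in the reticulum (1.21%) and 71 higher in the omasum (1.1%). These shares are the scale for the counts from gene lists given below. A difference of 4-fold or more was found for 9 and 10 genes, respectively. When the totals were rescaled by the trimmed mean method (TMM), which assumes that most genes do not differ, the median shifted by -0.10 and the numbers became 57 higher in the reticulum and 96 higher in the omasum. The share of these genes that were higher in the reticulum was then 37.3% in place of 52.3%. A shift of this size cannot turn a 2-fold ratio, so all 78 and all 71 genes kept their direction under this scaling.

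**Figure D1:**
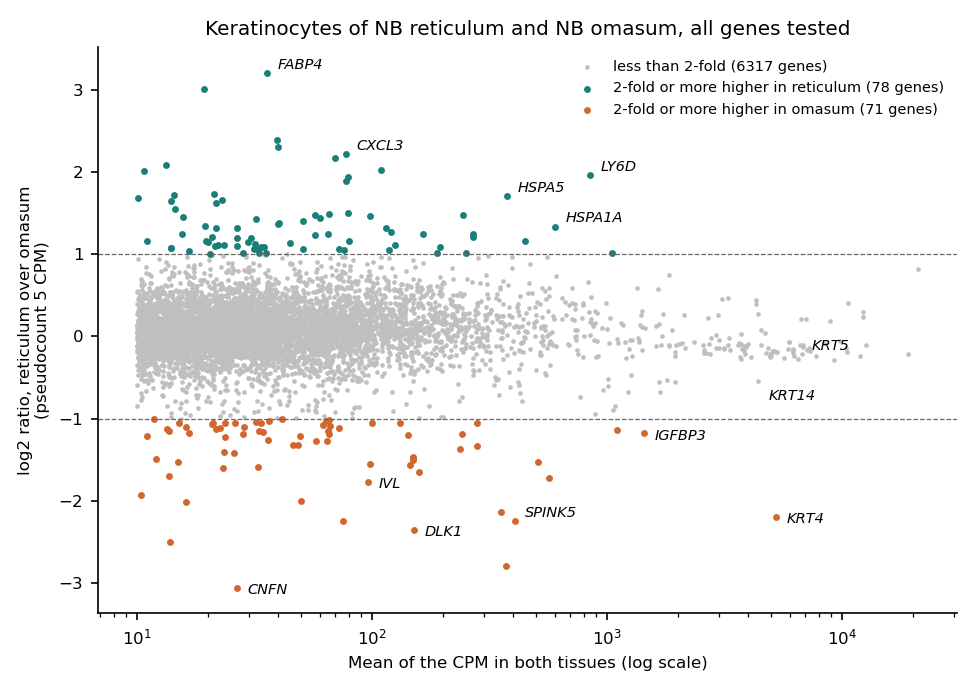
Log2 ratio of reticulum over omasum keratinocytes against the mean CPM of both tissues (log scale) for the 6466 genes compared, 1 library per tissue. The 78 genes at or above the upper dashed line and the 71 at or below the lower one differ at least 2-fold, and *KRT5* and *KRT14* lie between the lines.

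The highest log2 ratio of all genes compared was that of *FABP4*, a carrier of fatty acids. It had 2686 UMIs in the reticulum (68.9 CPM; 66.3 to 71.5) and 203 UMIs in the omasum (3.0 CPM; 2.60 to 3.44), a log2 ratio of 3.21. *FABP4* was found in 8.84% of the reticulum cells and 0.854% of the omasum cells (4.13% and 0.223% after each cell was thinned to 2000 UMIs). In the cells with *PECAM1* and no *KRT14*, which have median depths of 3599 and 3018 UMIs, it was found in 4.32% and 1.98% (1.80% and 1.15% after thinning). Capillary endothelium can express *FABP4*, so these cells set no background for it. Its log2 ratio was 2.54 as a mean over cells, 2.66 in cells with a mitochondrial share under 10%, and from 1.09 to 4.02 over tiers of cell maturation that are described with the upper layer genes. *SLC14A1*, a urea transporter with a mean level below the limit of 10 CPM, had 464 UMIs and 10 UMIs. *PPARG*, a nuclear receptor that activates lipid genes, was at 23.8 CPM and 11.1 CPM, which did not reach 2-fold on the scale used (log2 ratio 0.84).

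*BDH1*, which makes beta-hydroxybutyrate, was at 20.9 CPM in the reticulum and 18.4 CPM in the omasum, and *SLC16A1*, a transporter of lactate and ketone bodies, at 224 CPM and 182 CPM. Both were below 2-fold.

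**Figure D2:**
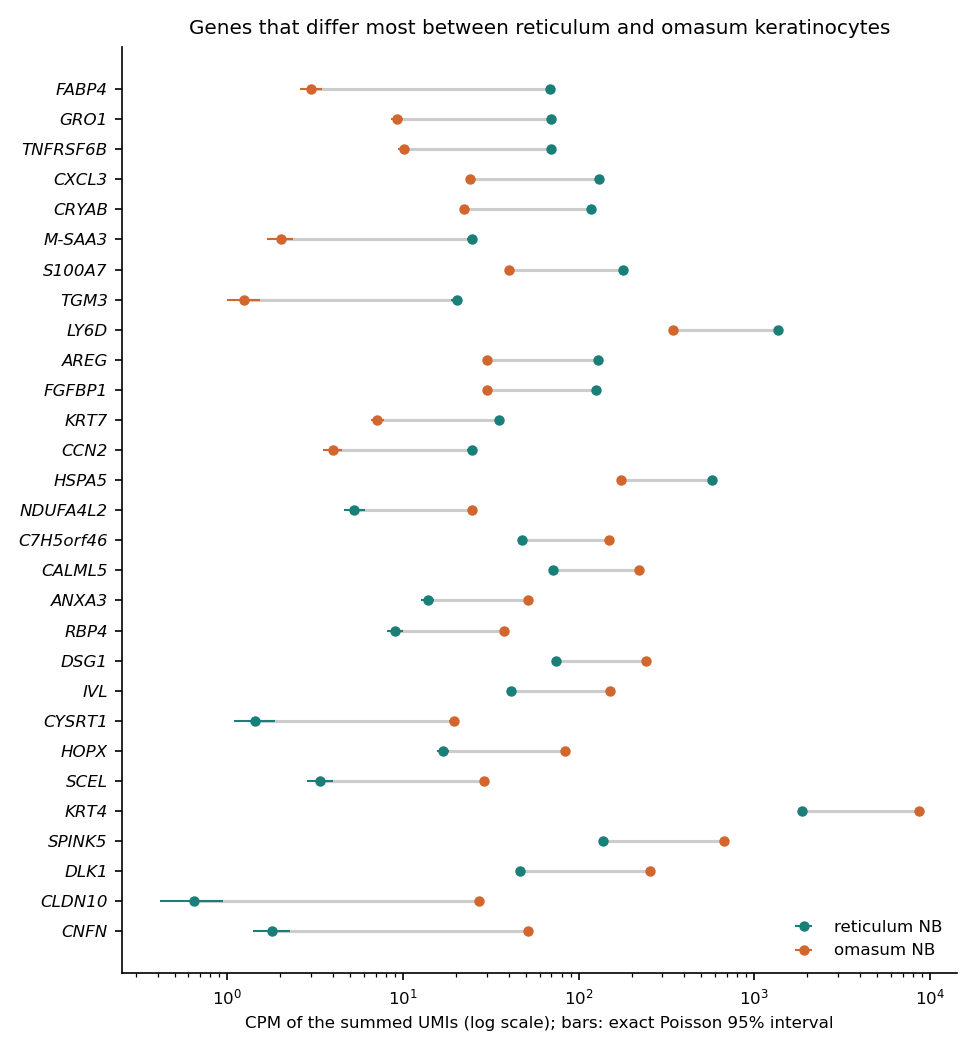
Level of 14 of the 15 genes with a symbol that had the highest and of the 15 that had the lowest log2 ratio, in CPM on a log scale, for NB reticulum (teal) and NB omasum (orange). Bars are exact Poisson 95% intervals of counting error and are often smaller than the point. *FABP4* spans 3.0 to 68.9 CPM and *CNFN* 1.79 to 51.5 CPM.

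*LY6D* and some defense genes were also higher in the reticulum. *LY6D*, an anchored surface protein of squamous cells, was at 1358 CPM in the reticulum and 344 CPM in the omasum, and it was found in 86.1% and 61.3% of the cells (69.6% and 33.8% after thinning). The *PECAM1* cells without *KRT14*, which should lack the gene, numbered 185 in the reticulum and 101 in the omasum, with median depths of 3599 and 3018 UMIs. It was found in 21.1% and 3.96% of them (13.2% and 1.15% after thinning). Of 9 innate defense genes compared, 4 were at least 2-fold higher in the reticulum and none in the omasum, with a median log2 ratio of 0.72, and 44 more lay below the limit of 10 CPM. The shares over all genes compared were 1.21% and 1.1%. The 4 were the neutrophil attractants *GRO1* (69.6 CPM and 9.29 CPM) and *CXCL3* (130 CPM and 24.2 CPM), the chemokine *CCL20* (29.0 CPM and 10.3 CPM), and *NFKBIA*, an inhibitor of NF-kappaB (254 CPM and 123 CPM; log2 ratio 1.02, or 0.91 after TMM scaling). *BPIFA2A*, a secreted defense protein, had 796 CPM in each tissue. *M-SAA3*, a serum amyloid A, was at 24.7 CPM and 2.01 CPM, and *TNFRSF6B*, a decoy receptor for TNF family ligands, at 69.5 CPM and 10.1 CPM.

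Among 11 S100 genes, 1 was at least 2-fold higher in the reticulum. This was *S100A7*, an antimicrobial protein of squamous epithelium, at 178 CPM in the reticulum and 40.1 CPM in the omasum. The median of the list was -0.26, and *S100A9* (611 CPM and 1177 CPM) and *S100A14* (320 CPM and 555 CPM) were higher in the omasum by less than 2-fold. By tier of maturation, *S100A9* was higher in the reticulum in the lowest (156 CPM and 78.7 CPM) and middle (280 CPM and 190 CPM) and higher in the omasum in the highest (1303 CPM and 2638 CPM). *GRO1* and *CXCL3* were found together in single cells. Of the 707 reticulum cells with *GRO1*, 54.9% had *CXCL3*, against 14.4% of the others, and of the 217 such omasum cells 44.2% had it, against 5.50%, with the *GRO1* cells deeper in both tissues (medians 11263 and 7806 UMIs in the reticulum, 9313 and 8505.5 UMIs in the omasum). *CXCL3* was most abundant in the *PECAM1* cells, which held 2551 UMIs of it in the reticulum and 610 in the omasum (log2 ratio 0.95). *GRO1* (717 CPM and 197 CPM, log2 ratio 1.84) and *NFKBIA* (1372 CPM and 535 CPM, 1.35) were also more abundant in the *PECAM1* cells than in the keratinocytes and higher in the reticulum there.

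Chaperone genes were higher in the reticulum as a group. Of 16 heat shock genes compared, 6 were at least 2-fold higher in the reticulum and none in the omasum, and 15 had a log2 ratio above 0, with a median of 0.70. Over all genes compared, 1.21% were at least 2-fold higher in the reticulum and 1.1% in the omasum. *HSPA5*, the main chaperone of the endoplasmic reticulum, was at 578 CPM and 173 CPM. *CRYAB*, a small heat shock protein, was at 118 CPM in the reticulum and 22.3 CPM in the omasum, and the stress-induced *HSPA1A* at 868 CPM and 341 CPM. *HSPH1* (76 CPM and 25.6 CPM), *DNAJB1* (161 CPM and 75.1 CPM), and *HSPA8* (1408 CPM and 693 CPM) made up the 6. After TMM scaling, 4 of the 6 remained at 2-fold or more, as *DNAJB1* and *HSPA8* had log2 ratios of 0.94 and 0.90. Further endoplasmic reticulum genes, named after their values were seen, were *MANF* (173 CPM and 77.4 CPM; log2 ratio 1.11, or 0.996 after TMM scaling), *HYOU1* (33.0 CPM and 10.3 CPM), and *CRELD2* (40.3 CPM and 13.1 CPM). With mitochondrial shares under 10%, the median of the list was 0.68, and *HSPA5* had a log2 ratio of 1.63 in place of 1.71.

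The immediate early genes are switched on within minutes of a stimulus, and they were split between the tissues. Of 30 compared, 4 were at least 2-fold higher in the reticulum and none in the omasum, while 21 had a log2 ratio below 0, with a median of -0.16. The shares over all genes compared were 1.21% and 1.1%. The 4 were the matricellular genes *CCN2* (24.7 CPM and 3.97 CPM) and *CCN1* (90.6 CPM and 30.3 CPM) and the growth arrest genes *GADD45G* (120 CPM and 39.2 CPM) and *GADD45B* (233 CPM and 95.3 CPM). In cells with *COL1A2* and no *KRT14*, *CCN2* was at 157 CPM and 78.4 CPM and *CCN1* at 698 CPM and 591 CPM. In the *PECAM1* cells they were at 308 CPM and 224 CPM and at 482 CPM and 240 CPM. *CCN2* was at 66.9 CPM and 7.08 CPM in the lowest tier of maturation, with a log2 ratio of 0.56 in the highest. The source of both among the cells chosen was not tested. *FOS* was at 805 CPM and 1225 CPM, *EGR1* at 262 CPM and 431 CPM, and *DUSP1* at 749 CPM and 1183 CPM, all lower in the reticulum by less than 2-fold.

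Sterol synthesis genes leaned to the reticulum. Of 17 compared, 16 had a log2 ratio above 0, 1 was at least 2-fold higher, and the median was 0.73, which became 0.62 after TMM scaling and 0.22 in the lowest tier of maturation. *HMGCS1*, an early enzyme of the pathway, was at 172 CPM in the reticulum and 68.5 CPM in the omasum. *SQLE*, which makes squalene epoxide, was at 101 CPM and 49.1 CPM, below 2-fold on the scale used. *SCD*, which desaturates fatty acids, was at 29.6 CPM and 10.7 CPM. Of 30 genes of redox and metal handling, 3 were at least 2-fold higher in the reticulum and 1 in the omasum, with a median of 0.07. The shares over all genes compared were 1.21% and 1.1%. The 3 were *GSTM3* (362 CPM and 127 CPM), *HMOX1*, which breaks down heme (18.0 CPM and 2.14 CPM), and the metallothionein *MT2A* (377 CPM and 160 CPM). The 1 was *ALDH3A2*, which oxidizes fatty aldehydes (20.2 CPM and 47.2 CPM).

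Keratins of simple epithelium were higher in the reticulum. *KRT7* was at 35.4 CPM and 7.15 CPM, and *KRT19* at 147 CPM and 49.9 CPM, the only 2 of 6 such keratins that passed the limit of 10 CPM. *KRT19* was found in 39.4% of the reticulum cells and 20.9% of the omasum cells, and in 2.70% and 1.98% of the *PECAM1* cells. Of the 850 reticulum cells with *KRT7*, 51.4% had *KRT19*, against 36.4% of the others, which were shallower (medians 9806 and 7900 UMIs), and the level of *KRT19* was 172 CPM and 139 CPM. Of the 405 omasum cells with *KRT7*, 36.3% had *KRT19*, against 20.0% of the others, at similar depth (medians 8426 and 8533 UMIs). The level of *KRT19* in the omasum was 87.5 CPM with *KRT7* and 47.7 CPM without. *CLDN3*, a claudin of tight junctions, was at 43.0 CPM and 16.7 CPM.

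Growth factors differed in single members, and their pathway lists had medians near that of all genes. Over all genes compared, 2.3% differed at least 2-fold. *AREG*, a ligand of the EGF receptor, was at 129 CPM in the reticulum and 29.9 CPM in the omasum, while the receptor gene *EGFR* was at 12.6 CPM and 14 CPM. It was the 1 of 7 EGF ligands and receptors at 2-fold or more. *FGFBP1*, which frees fibroblast growth factors from the matrix, was at 125 CPM and 29.9 CPM, and the receptors *FGFR2* (109 CPM and 114 CPM) and *FGFR3* (101 CPM and 99.3 CPM) were near equal. In the IGF system, 2 of 10 genes differed at least 2-fold, in opposite directions. The fetal growth factor *IGF2* was at 86.6 CPM in the reticulum and 27.9 CPM in the omasum, with far higher levels in the *COL1A2* cells (3522 CPM and 2171 CPM) and *PECAM1* cells (1212 CPM and 1166 CPM) without *KRT14*. Its source among the cells chosen, which also held more fibroblast marker UMIs in the reticulum (343 CPM and 219 CPM), was not tested. *IGFBP3*, a binding protein of IGFs, was at 879 CPM and 1996 CPM. *SFRP1*, a secreted antagonist of WNT ligands, was at 112 CPM and 47.7 CPM, the 1 of 15 WNT pathway genes at 2-fold or more. *TGFBI*, a matrix protein induced by TGF-beta, was at 4.72 CPM and 17.4 CPM, the 1 of 15 BMP and TGF-beta genes.

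Genes that mark position along the tract set the tissues apart in a few members. Of 39 HOX genes, 4 were compared, all of the HOXC cluster. *HOXC8* was at 24.2 CPM in the reticulum (22.7 to 25.8) and 4.97 CPM in the omasum (4.45 to 5.53). Its neighbors in the cluster were near equal, with *HOXC4* at 31.6 CPM and 31.8 CPM, *HOXC5* at 43.0 CPM and 49.6 CPM, and *HOXC6* at 54.7 CPM and 56.6 CPM. *HOXC8* was found in 18.1% of the reticulum cells and 4.23% of the omasum cells, and in 1 of 185 and 0 of 101 *PECAM1* cells. Of 15 other regional transcription factors, *MEIS1*, a cofactor of HOX proteins, was the 1 at 2-fold or more (47.6 CPM and 19.7 CPM; log2 ratio 1.09, or 0.99 after TMM scaling). *PITX1* (337 CPM and 511 CPM), *LMO1* (89.9 CPM and 52.5 CPM), and *IRX3* (143 CPM and 128 CPM) were below 2-fold, and the median of the list was 0.03.

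On the omasum side, *DLK1* differed in a large share of the cells. *DLK1*, a membrane protein related to the Notch ligands and active in fetal tissue, was at 46.0 CPM in the reticulum (43.9 to 48.2) and 256 CPM in the omasum (252 to 260). It was found in 16.3% and 57.7% of the cells, and in 7.58% and 33.9% after thinning. Of the *PECAM1* cells, 2 of 185 had it in the reticulum and 0 of 101 in the omasum. The Notch list had 9 genes compared, of which *DLK1* and the receptor *NOTCH3* (16.3 CPM and 40.8 CPM) were at least 2-fold higher in the omasum and none in the reticulum, with a median of -0.47. *HES1*, a target of Notch, was at 185 CPM and 279 CPM, *JAG1* at 65.8 CPM and 92.8 CPM, and *JAG2* at 103 CPM and 93.6 CPM.

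Genes of the upper layers were higher in the omasum. Of 13 spinous genes compared, 7 were at least 2-fold higher in the omasum and 1 in the reticulum, with a median log2 ratio of -1.04, which was 0.01 in the lowest and 0.06 in the middle of 3 tiers of cell maturation described further on. The 7 were *KRT4*, a mucosal keratin (1882 CPM in the reticulum and 8659 CPM in the omasum), *KRT78* (24.4 CPM and 68.2 CPM), the calcium-binding *CALML5* (71.2 CPM and 221 CPM), *KRTDAP* (259 CPM and 756 CPM), *SBSN* (19.3 CPM and 45.1 CPM), the desmosomal cadherin *DSG1* (74.3 CPM and 243 CPM), and *NOTCH3*. The 1 was *LY6D*, and *TGM1*, a transglutaminase of the envelope (77.5 CPM and 76 CPM), and *FABP5*, a fatty acid carrier of keratinocytes (1726 CPM and 1723 CPM), were near equal.

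Of 11 cornified envelope genes compared, 8 were at least 2-fold higher in the omasum and 1 in the reticulum, with a median of -1.34. This median was -0.11 in the lowest and -0.30 in the middle tier. *CNFN*, cornifelin, was at 1.79 CPM in the reticulum (1.40 to 2.27) and 51.5 CPM in the omasum (49.8 to 53.2), the lowest log2 ratio of all genes compared (-3.06). By tier its log2 ratio was -0.31 in the lowest, -0.30 in the middle, and -3.78 in the highest. *SPINK5*, a protease inhibitor that restrains shedding, was at 138 CPM and 673 CPM, and *IVL*, involucrin, at 41.0 CPM and 152 CPM. *SCEL*, *CYSRT1*, *KLK10*, *A2ML1*, and 1 of the 2 genes named *CSTB* followed (log2 ratios from -2.02 to -1.08). The 1 in the opposite direction was *TGM3*, a cross-linking enzyme of the envelope, at 20.2 CPM in the reticulum and 1.24 CPM in the omasum. *CRNN*, cornulin, lay below the limit of 10 CPM with 20 and 543 UMIs. When 5 or more UMIs of *KRT14* were required, the log2 ratio of *CNFN* was -1.48 and the median of the spinous list was -0.14, while that of the cornified list was -1.05. With that limit *KRT78* (-0.08), *SBSN* (-0.14), *A2ML1* (-0.37), and *KLK10* (-0.80) no longer differed 2-fold, and *CYSRT1* had a log2 ratio of -1.08.

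**Figure D3:**
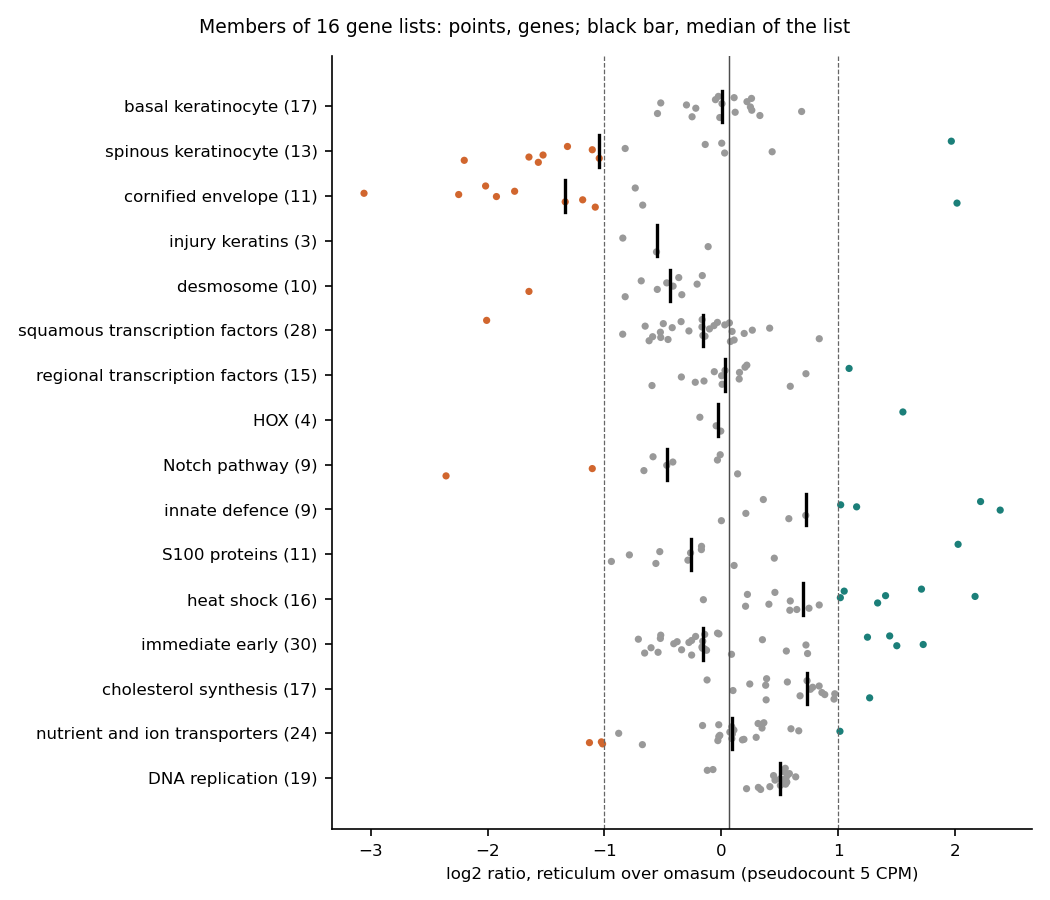
Log2 ratio of reticulum over omasum for the genes compared in 16 lists, with the number compared in parentheses. Each point is a gene, colored where it differs at least 2-fold, the black bars are list medians, the solid line is the median of all genes (0.06), and the spinous (-1.04) and cornified (-1.34) medians lie at the left.

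The basal genes were more alike. Of the 16 basal genes compared other than *KRT14*, which chose the cells, none differed at least 2-fold, and the median was 0.06. The hemidesmosome genes *ITGA6* (132 CPM and 110 CPM), *ITGB4* (134 CPM and 166 CPM), and *COL17A1* (1515 CPM and 1267 CPM) were near equal. All 10 desmosome genes compared had a log2 ratio below 0, with a median of -0.44, and *DSG1* was the 1 at 2-fold or more. *JUP*, plakoglobin, was at 326 CPM and 528 CPM, and *DSP*, desmoplakin, at 379 CPM and 481 CPM. Of 15 other cell junction genes compared, 2 were at least 2-fold higher in the omasum and 1 in the reticulum, with a median of -0.17. The 2 were *CLDN10* (log2 ratio -2.51) and *NECTIN4*, an adhesion protein (-1.06, or -0.83 with 5 or more UMIs of *KRT14*), and the 1 was *CLDN3* (1.15). Of 28 transcription factors of squamous epithelium, 1 was at least 2-fold higher in the omasum, *HOPX*, a homeodomain protein without DNA binding, at 16.9 CPM and 83.2 CPM. Its log2 ratio of -2.01 was -1.11 with 5 or more UMIs of *KRT14*. *KLF4* (281 CPM and 406 CPM) and *ZNF750* (29.4 CPM and 49.1 CPM), which drive terminal differentiation, were below 2-fold, and the median of the list was -0.16.

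The cells were also split by maturation. The share of a cell's UMIs from the spinous and cornified lists was cut into 3 tiers of equal size over both tissues, at 0.198% and 0.501%. The lowest, middle, and highest tier held 31.0%, 38.8%, and 30.2% of the reticulum cells and 34.7%, 30.2%, and 35.1% of the omasum cells. The highest tier has no upper cut and is not matched between the tissues. Over all cells, the 90th percentile of the share was 1.10% in the reticulum and 3.49% in the omasum. This split uses genes that differ, since *KRT4* gave 28.3% of these UMIs in the reticulum and 58.4% in the omasum, *LY6D* 20.4% and 2.32%, and *FABP5* 26% and 11.6%. In the highest tier, *KRT4* was at 4658 CPM in the reticulum and 19750 CPM in the omasum, *SPINK5* at 382 CPM and 1605 CPM, *IVL* at 109 CPM and 360 CPM, and *CNFN* at 4.18 CPM and 121 CPM. In the lowest tier, *IVL* was at 2.79 CPM and 2.66 CPM and *SPINK5* at 2.60 CPM and 5.57 CPM, a log2 ratio of -0.48 after 5 CPM was added to these low levels. *KRT4* (110 CPM and 285 CPM) and *DSG1* (9.44 CPM and 30.0 CPM) were at least 2-fold higher in the omasum there as well. *KRT4* was also found in 28.6% and 61.4% of the *PECAM1* cells without *KRT14*, and its source at the levels of the lowest tier was not tested. *DSG1* was at 1.23 CPM and 7.99 CPM in the *PECAM1* cells. In the *COL1A2* cells without *KRT14* it was at 3.84 CPM and 40.3 CPM, from 1 and 18 UMIs. Its source in the lowest tier was likewise not tested. The number of genes at least 2-fold higher in the omasum was 22, 41, and 124 from the lowest to the highest tier, and the number higher in the reticulum 59, 109, and 117.

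Some genes differed in each tier. *LY6D*, which is one of the genes that cut the tiers, was at 388 CPM and 160 CPM in the lowest tier, 1161 CPM and 291 CPM in the middle, and 2294 CPM and 511 CPM in the highest. *HOXC8* was at 34.3 CPM and 5.67 CPM in the lowest tier, 22.4 CPM and 5.88 CPM in the middle, and 18.5 CPM and 3.83 CPM in the highest. *DLK1* was at 77.2 CPM and 415 CPM in the lowest tier and at 17.6 CPM and 91.3 CPM in the highest, so it was higher in the omasum in both and lower in the highest tier of each tissue. *CXCL3* was most abundant in the lowest tier (306 CPM and 53.1 CPM), which was also where *DCN* was highest (589 CPM and 281 CPM). Without cells that held *PTPRC*, *COL1A2*, *COL3A1*, or *CDH5*, the log2 ratio of *CXCL3* was 2.20 in place of 2.22. This left 4041 reticulum and 6958 omasum cells, whereas *DCN* was found in 42.6% and 30.4% of all cells chosen. Leaving out barcodes does not remove free RNA from the other droplets, so this cannot show the source of *CXCL3*, which was not tested.

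**Figure D4:**
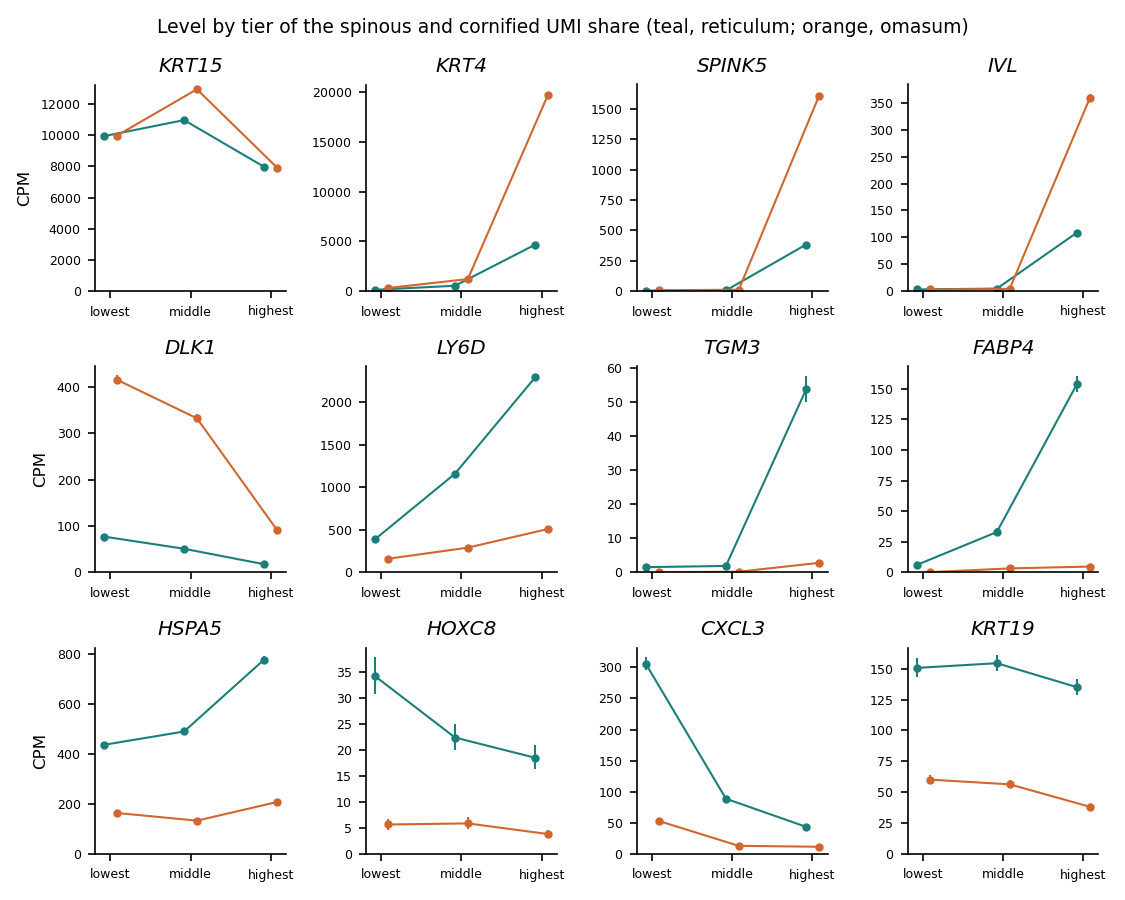
CPM of 12 genes in the cells of the lowest, middle, and highest tier of the spinous and cornified UMI share, for reticulum (teal) and omasum (orange), with exact Poisson 95% intervals and an axis from 0 in each panel. *SPINK5* and *IVL* have their widest gap in the highest tier, whereas *KRT4*, *LY6D*, *HOXC8*, and *DLK1* differ at least 2-fold in all of them.

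Transport and oxygen-related genes were mixed. Of 24 nutrient and ion transporters compared, 3 were at least 2-fold higher in the omasum and 1 in the reticulum, with a median of 0.09. The shares over all genes compared were 1.1% and 1.21%. The 3 were the carbonic anhydrase *CA2* (11.7 CPM and 31.5 CPM), the bicarbonate cotransporter *SLC4A7* (40.4 CPM and 87.6 CPM), and the glucose transporter *SLC2A1* (41.8 CPM and 89.6 CPM). The 1 was the sodium and proton exchanger *SLC9A3* (45.9 CPM and 20.2 CPM; log2 ratio 1.01, or 0.91 after TMM scaling). *AQP3*, a water and glycerol channel, was at 943 CPM and 1509 CPM, below 2-fold. Of 21 genes of glycolysis and hypoxia, *SLC2A1* and *NDRG1* (130 CPM and 343 CPM) were at least 2-fold higher in the omasum. *CLDN10*, a claudin that forms ion channels between cells, had 25 UMIs in the reticulum and 1829 in the omasum (0.641 CPM and 27.0 CPM). In omasum cells of the highest tier it was at 63.8 CPM, and with 5 or more UMIs of *KRT14* its log2 ratio of -2.51 was -1.20. *RBP4*, a carrier of retinol, was at 9.05 CPM and 37.7 CPM, and *ANXA3*, an annexin, at 13.8 CPM and 51.7 CPM. *C7H5orf46* (47.5 CPM and 149 CPM) and *NDUFA4L2*, a mitochondrial protein induced by hypoxia (5.28 CPM and 24.7 CPM), complete the 15 on that side.

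A few further lists leaned one way. All 7 class I and antigen processing genes compared had a log2 ratio above 0, with a median of 0.49 and none at 2-fold. The highest was that of *CALR*, calreticulin (0.88), at 614 CPM and 332 CPM. The others were *PDIA3* (0.56), *CANX* (0.56), *B2M* (0.49), *TAPBP* (0.32), *TAP2* (0.30), and *BOLA* (0.06). Of 16 protease inhibitor genes, 3 were at least 2-fold higher in the omasum and 1 in the reticulum, with a median of -0.28. The shares over all genes compared were 1.1% and 1.21%. Beside *SPINK5* and *CSTB*, there was *SERPINB12* (11.8 CPM and 30.1 CPM; log2 ratio -1.06, or -0.76 with 5 or more UMIs of *KRT14*), and the 1 in the reticulum was *SERPINE2*, which inhibits thrombin and plasminogen activators (82.0 CPM and 32.2 CPM). The keratins of injured and fast-renewing epithelium, *KRT6A* (772 CPM and 1390 CPM) and *KRT17* (1575 CPM and 2317 CPM), were higher in the omasum by less than 2-fold. By tier, *KRT17* was higher in the reticulum in the lowest (log2 ratio 0.73) and middle (0.63) and higher in the omasum in the highest (-0.63), and *KRT6A* had log2 ratios of -0.01, 0.58, and -0.73.

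Of the 149 genes, 3 on the reticulum side and 7 on the omasum side had no symbol. The first in the omasum were ENSBTAG00000050581 (90.4 CPM and 657 CPM) and ENSBTAG00000046944 (23.0 CPM and 128 CPM), both highest in the highest tier of the omasum, at 1551 CPM and 302 CPM. The first in the reticulum were ENSBTAG00000039643 (23.7 CPM and 4.15 CPM) and ENSBTAG00000054745 (25.3 CPM and 6.09 CPM). ENSBTAG00000054745 was far higher in the *COL1A2* cells without *KRT14* (3046 CPM and 804 CPM). Among the cells chosen it was at 54.4 CPM and 5.57 CPM in the lowest tier, and its source there was not tested. With 5 or more UMIs of *KRT14*, the log2 ratio of ENSBTAG00000046944 was -1.30 in place of -2.25 and that of ENSBTAG00000054745 was 0.74 in place of 1.45.

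Replication genes were slightly higher in the reticulum. Of 19 compared, none differed at least 2-fold, 17 had a log2 ratio above 0, and the median was 0.50, which became 0.26 when cells with *MKI67* were kept and 0.12 in the lowest tier of maturation. *MCM5*, a subunit of the replicative helicase, was at 143 CPM in the reticulum and 90.2 CPM in the omasum, and *PCNA*, the sliding clamp, at 250 CPM and 180 CPM. The mitotic genes had a median of 0.27 over 12, again with none at 2-fold, and the median of the mitotic genes was -0.14 when cells with *MKI67* were kept and -0.04 in the lowest tier. The 13 mitochondrially encoded genes all had a log2 ratio above 0 and a median of 0.26, which was 0.04 in cells with a mitochondrial share under 10%.

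The same ratio was then formed in cells that the limits had left out. The keratinocytes with *MKI67* numbered 2323 in the reticulum and 2666 in the omasum. Of the 78 genes higher in the reticulum, 77 had the same sign in them and 58 differed at least 2-fold, and of the 71 higher in the omasum all had the same sign and 33 differed at least 2-fold. These cells come from the same libraries and are no replicate. *DLK1* had a log2 ratio of -3.04 in them, *LY6D* 2.60, and *CRYAB* 2.71, all farther from 0 than in the cells chosen. Others came closer to 0, and *CLDN10* had -0.72 in place of -2.51, *CYSRT1* -0.62 in place of -1.92, and *CCN2* 0.57 in place of 1.72. The median of the 71 genes was -0.93 in place of -1.21.

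In the cells with *COL1A2* or *PECAM1* and without *KRT14*, some of these ratios turned. The cells with *COL1A2* were few and shallow, 95 in the reticulum and 218 in the omasum, with median depths of 2104 and 1706.5 UMIs. *DLK1* had 343 UMIs in the 95 cells and 129 in the 218, a log2 ratio of 2.17, against -2.35 in the keratinocytes. *FABP4* had 2 and 28 UMIs there (-2.42). *HSPA5* and *HSPA1A* had log2 ratios of -0.01 and -0.38 in the *COL1A2* cells and of 0.66 and 0.64 in the *PECAM1* cells, against 1.71 and 1.34 in the keratinocytes. Other chaperones were closer to their keratinocyte ratio in the *PECAM1* cells, with 1.18 for *DNAJB1*, 1.22 for *HSPH1*, and 0.86 for *HSPA8* against 1.05, 1.40, and 1.02 in the keratinocytes. In the *COL1A2* cells, *HSPA8* (0.74) and *CRYAB* (1.05) were higher in the reticulum and *DNAJB1* (-0.64) and *HSPH1* (-0.29) in the omasum. *IGFBP3* had 1105 UMIs in the reticulum and 239 in the omasum in the *PECAM1* cells, a log2 ratio of 1.09 against -1.18 in the keratinocytes. The keratinocyte genes *KRT4* (-2.41 and -2.37) and *LY6D* (2.30 and 1.83) kept their ratio in the *COL1A2* and *PECAM1* cells, at 105 and 968 UMIs and at 54 and 17 UMIs in the *COL1A2* cells. The barcodes with none of *KRT14*, *COL1A2*, and *PECAM1* numbered 446 and 346, and how many of them are keratinocytes was not tested. They carried the keratinocyte genes *KRT15* (9436 CPM and 4342 CPM) and *COL17A1* (1452 CPM and 580 CPM), so they are no contrast to keratinocytes. There *DLK1* (17.1 CPM and 88.0 CPM), *FABP4* (29.7 CPM and 0 CPM), *HSPA5* (457 CPM and 288 CPM), and *IGFBP3* (373 CPM and 609 CPM) differed in the direction of the keratinocytes. *CNFN* (4.50 CPM and 321 CPM) and *IVL* (86.8 CPM and 605 CPM) were above their levels in the cells chosen.

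**Figure D5:**
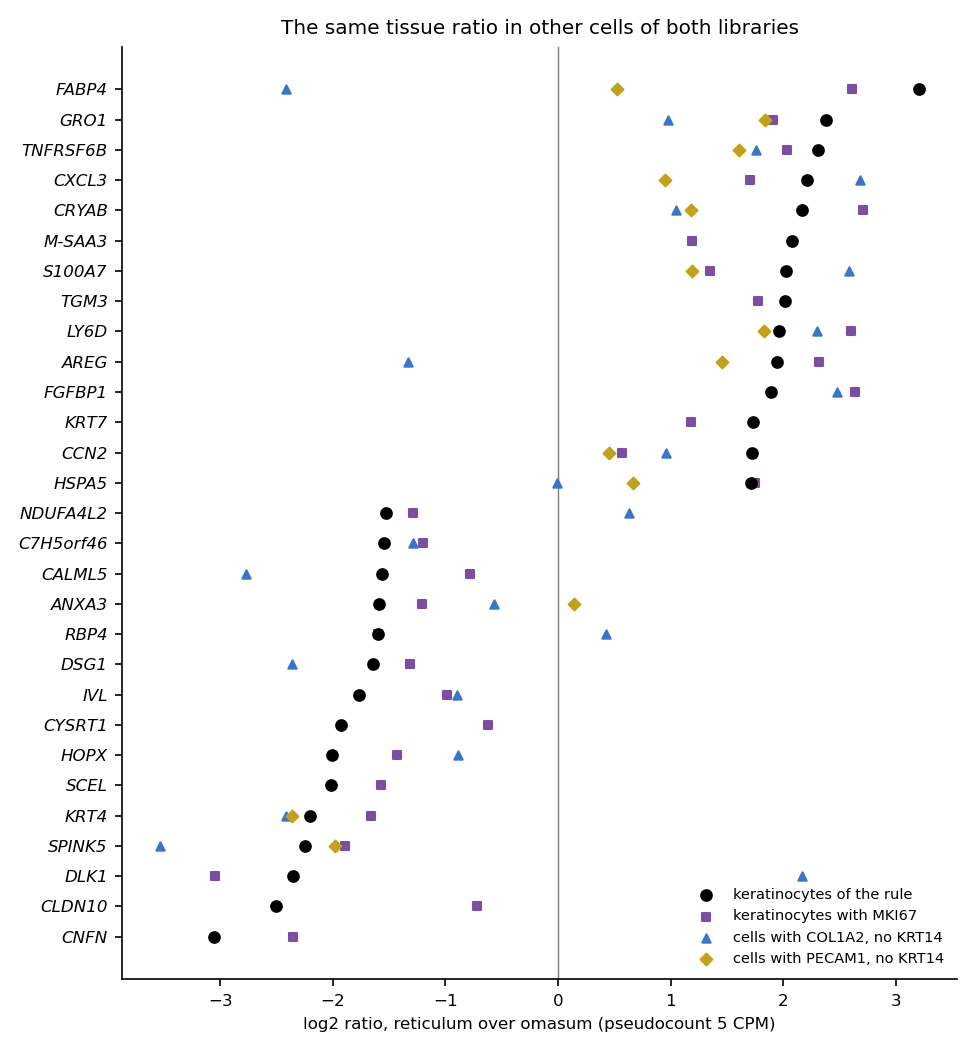
Log2 ratio of reticulum over omasum for the 29 genes of the plot of levels, in the keratinocytes chosen (black), in keratinocytes with *MKI67* (purple), and in cells with *COL1A2* (blue) or *PECAM1* (yellow) and no *KRT14*, where the gene had at least 10 UMIs. Purple lies on the side of black in all 29, and *DLK1* in *COL1A2* cells lies at 2.17 on the opposite side.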

How the data were processed

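Single-cell RNA was measured with the 10x Genomics method, and the authors made the deposited UMI counts with Cell Ranger 3.1.0 on the ARS-UCD1.2 cattle genome. The annotation release is not given in the sources used here. Reads that map to several genes are not counted by that tool, so genes with near-identical copies may be undercounted. The deposited counts are whole and not normalized, with 125527022 UMIs in the NB reticulum library and 129458578 in the NB omasum library, and 39003791 and 67673100 in the cells used. The members and the gene lists were chosen with earlier results of these data known. No doublets were removed, which was tried as an alternative. The study's limit of 40% on mitochondrial UMIs was not part of the choice of cells and was likewise an alternative.

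UMIs were summed over the cells of each tissue and divided by their total. The log2 ratio was formed after adding 5 CPM, for genes with a mean of at least 10 CPM. With 1 library per tissue no test was made. Intervals at the 95% level are exact Poisson for CPM, exact conditional for ratios, and Clopper-Pearson for shares, and they cover counting error only. Cells were thinned to 2000 UMIs to compare shares, and 294 reticulum and 322 omasum cells below that were left out. The genes named are those that chose the cells, the members of the lists, the first 15 with a symbol in each direction, and the first 2 without a symbol in each direction. Some genes covered by this rule are not reported here. The arithmetic of the comparison was run on simulated Poisson counts with planted changes. These hold no difference between animals, libraries, or mixtures of cells. Sums used pandas 2.3.3 and NumPy 2.4.6 in Python 3.11.15, intervals SciPy 1.17.1, the doublet alternative scanpy 1.11.5 with anndata 0.12.19, and figures matplotlib 3.10.9.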

Additional observations from a re-analysis of the deposited data

How the results depend on the processing

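With 1 library per tissue, no setting shows how another calf would differ, and the depth limits genes below 10 CPM. No paired analysis was possible because each tissue had 1 library and no replicate number. The 78 and 71 genes kept their sign when the limits on cells, the scaling, the doublets, the depth, or the pseudocount were changed. A pseudocount cannot turn a sign, and the shift under TMM scaling is too small to turn a 2-fold ratio. The other settings reuse cells of the same libraries. In the tiers all 78 kept their sign while 60, 63, and 71 of the 71 did. The reticulum cells numbered 6587 with no limit on *MKI67* and 2478 with a mitochondrial share under 10% and 5 or more UMIs of *KRT14*, a setting chosen after seeing the data. Genes higher in the omasum numbered 22, 41, and 124 in the lowest, middle, and highest tier, and 33 and 34 genes differed with a mean of at least 50 CPM. TMM scaling gave 57 and 96 genes. Among the named genes at 2-fold or more, log2 ratios that turned above 0 were, in the lowest and middle tier, 0.13 and 0.080 for *CSTB* (ENSBTAG00000018189), 0.025 and 0.061 for *IVL*, 0.33 and 0.29 for *KRT78*, and 0.011 and 0.061 for the median of the spinous list, in the lowest tier 0.048 for *A2ML1* and 0.011 for *SBSN*, and in the middle tier 0.061 for *KRTDAP*. The tiers are cut on these genes, and the cause was not tested.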

Other observations

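Several genes below the limit of 10 CPM had counts that part the tissues, and they were chosen after their values were seen. *CXCL5*, another neutrophil attractant, had 395 UMIs in the reticulum and 31 in the omasum keratinocytes, and *HSPA6*, an inducible heat shock gene, had 443 and 30. *CYP4B1*, a cytochrome P450, had 38 UMIs in the reticulum and 792 in the omasum, and the transcription factor gene *PAX1* had 1 and 149, a ratio of 85.9 for the omasum with a counting interval from 15.2 to 3414. The level of *PAX1* was 5.07 CPM in the highest tier of the omasum cells and 0 CPM in the lowest.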
